A study of Mus musculus with 4 samples.

Results

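The genes described here belong to the pathway of sterol and fatty acid synthesis that is controlled by sterol regulatory element-binding proteins (SREBPs). They were chosen by name from a list of 36 genes, and 34 of them had values among the 11502 gene symbols of the RNA-Seq data, comprising 5 regulators, 17 enzymes of the sterol branch, 9 enzymes of the fatty acid branch and 3 genes of sterol transport. Fads2 and Stard4 were not analysed here. The libraries came from HT-22, an immortalized cell line derived from mouse hippocampal neurons, with 1 library in each of 4 groups. By the study's methods, control HT-22 cells received a negative control lentivirus, although the label of the Ctrl group says wild type, and the PGC-1α group received a lentivirus that overexpressed PGC-1α, a transcriptional co-activator of mitochondrial genes encoded by Ppargc1a. The Ctrl+OGD and PGC-1α+OGD groups had in addition undergone oxygen-glucose deprivation (OGD), that is, 2 h under nitrogen in medium free of serum and glucose, with 24 h of normal medium afterwards. The methods describe puromycin selection of the infected cells and name no separate clones. Since no group had a second library, no difference below has a replicate error or a p value, and each is a description of the libraries compared.

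SREBPs are transcription factors that are made as precursors in the membrane of the endoplasmic reticulum. When sterols are scarce, the escort protein SCAP carries them to the Golgi apparatus, where proteases release the active part, and when sterols are plentiful, INSIG proteins hold SCAP and its cargo back. SREBP-2, encoded by Srebf2, is known for driving the cholesterol pathway, and SREBP-1, encoded by Srebf1, is better known for driving fatty acid synthesis. Neurons and glial cells make their cholesterol locally, because lipoproteins of the blood do not cross into the brain.

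The deposited values were given per transcript and were taken as FPKM, that is, sequenced fragments normalised to transcript length and library size. The transcripts of each gene were summed, and differences are given as differences of log2(FPKM + 1), named log2 fold change here, among the 10604 genes that averaged at least 1 FPKM across libraries. All 34 genes passed this limit. Counts below are of genes that were at least 1.5-fold higher or lower on this scale. Where a pair of values is given for control cells or for PGC-1α cells, the first is without OGD and the second after OGD. The number of reads per library is unknown, and the totals of the 4 columns lay between 331892 and 353381 FPKM. As a check of the labels, Ppargc1a was at 0.900 FPKM without and 0.103 FPKM after OGD in control cells, and at 35.1 FPKM without and 8.41 FPKM after OGD in PGC-1α cells. The label of hippocampal neurons rests on few markers, since of 10 neuronal markers only Syp (0.258 to 0.997 FPKM) and Camk2a (4.40 to 7.31 FPKM) had values in the transcripts analysed here. Of 14 markers of astrocytes, microglia and oligodendrocytes, 4 had values, namely S100b (10.0 to 18.4 FPKM), Aldh1l1 (2.32 to 4.53 FPKM), Cx3cr1 (0.0239 to 1.22 FPKM) and Mbp (3.26 to 4.76 FPKM), so that S100b lay above both neuronal markers in each library. Their part in the results was not tested.

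Most promoters of these genes held a sequence feature that the choice of members did not use directly. The list is of genes controlled by SREBPs, so this feature is not independent of that choice. SREBPs are known to act together with the factor NF-Y, which binds the letters CCAAT, and with SP1, which binds GGGCGG. RefSeq promoter windows of build GRCm38.p6 were available for 27 of the 34 genes, and the 250 bases before each start site were searched on both strands. CCAAT was found in all 14 sterol genes with a window, 4 of 6 fatty acid genes, 4 of 5 regulators and 1 of 2 sterol transport genes. Of the 8406 genes of the table with a window, 41.8% held it. Among genes with a single window, 12 of 12 sterol genes held CCAAT, against 38.6% of 6681 genes. GGGCGG was found in 13 of 14 sterol genes and in 2 of 6 fatty acid genes. It was also found in 5 of 5 regulators and in 2 of 2 sterol transport genes, Abca1 among them. Of the genes of the table, 65.7% held it. TCACNCCAC, the core of a sterol regulatory element, was found in 1 sterol gene, Hmgcs1, and in 1.21% of the genes of the table. In Dhcr7, CCAAT was found in 1 of 3 windows only, and Pmvk also had a window without it. CCAAT and its reverse complement ATTGG can share letters, as in Fasn below, and neither overlapped TCACNCCAC in the sequences shown. These are matches of letters in a window and not measured binding. The 66 genes of the whole table that had a window and were at least 1.5-fold higher in both OGD comparisons held CCAAT in 25 cases (37.9%).

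The 150 bases before the start site are shown for 4 sterol enzymes (Hmgcs1, Mvk, Mvd and Ebp), for the fatty acid synthase gene Fasn and for the sterol exporter gene Abca1, because these show the contrast between promoters with and without CCAAT. They lie at chr13:119690201-119690350 on the plus strand for Hmgcs1, chr5:114444119-114444268 on the plus strand for Mvk, chr8:122443423-122443572 on the minus strand for Mvd, chrX:8193513-8193662 on the minus strand for Ebp, chr11:120824548-120824697 on the minus strand for Fasn and chr4:53159896-53160045 on the minus strand for Abca1. No annotated exon of GENCODE release M21 overlaps them. Capitals mark CCAAT on either strand and, in Hmgcs1, the match to TCACNCCAC.
Hmgcs1: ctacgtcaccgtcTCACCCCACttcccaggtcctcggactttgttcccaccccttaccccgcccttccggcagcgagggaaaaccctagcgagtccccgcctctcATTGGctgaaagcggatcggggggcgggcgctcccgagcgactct
Mvk: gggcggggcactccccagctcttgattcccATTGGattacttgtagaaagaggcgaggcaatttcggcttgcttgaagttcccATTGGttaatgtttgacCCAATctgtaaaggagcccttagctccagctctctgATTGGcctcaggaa
Mvd: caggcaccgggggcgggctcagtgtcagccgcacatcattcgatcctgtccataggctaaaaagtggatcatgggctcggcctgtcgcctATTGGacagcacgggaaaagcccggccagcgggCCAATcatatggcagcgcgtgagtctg
Ebp: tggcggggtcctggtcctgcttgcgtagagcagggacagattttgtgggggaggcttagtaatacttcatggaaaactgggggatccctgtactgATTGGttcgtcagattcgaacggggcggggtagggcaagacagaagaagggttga
Fasn: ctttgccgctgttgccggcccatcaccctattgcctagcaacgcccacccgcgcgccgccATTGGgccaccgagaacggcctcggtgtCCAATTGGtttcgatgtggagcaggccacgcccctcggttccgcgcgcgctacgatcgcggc
Abca1: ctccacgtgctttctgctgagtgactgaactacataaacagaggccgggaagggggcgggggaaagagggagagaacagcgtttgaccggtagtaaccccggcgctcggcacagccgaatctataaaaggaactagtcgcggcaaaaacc
Within these stretches, Mvk held 4 matches to CCAAT, Fasn 3, Mvd 2, Hmgcs1 and Ebp 1 each, and Abca1 held 0. Among members not shown, CCAAT did not follow the direction after OGD in each case. It was found in a window of Insig2 and in Npc2, which were lower in Ctrl+OGD vs Ctrl (-0.68 and -0.30). No match was found in Elovl6 and Acaca, which were higher there (0.25 and 0.26).

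The sterol branch was higher after OGD in control cells, whereas the fatty acid branch differed less. In Ctrl+OGD vs Ctrl, 10 of 17 sterol genes and 1 of 9 fatty acid genes were at least 1.5-fold higher, and 6.2% of all genes tested were. The median log2 fold change was 0.78 for the sterol branch, 0.26 for the fatty acid branch and -0.02 for all genes tested. All 17 sterol genes had a log2 fold change above 0, from 0.04 in Tm7sf2 to 1.32 in Msmo1, against 5086 of all 10604 genes. Summed over the branch, the sterol genes had 288 FPKM in Ctrl and 522 FPKM in Ctrl+OGD, a ratio of 1.81, and the fatty acid genes had 290.5 FPKM and 375 FPKM, a ratio of 1.29. In the cells with PGC-1α, which give a second OGD comparison that shares no library with the first, the difference was smaller. In PGC-1α+OGD vs PGC-1α, 6 of 17 sterol genes and 1 of 9 fatty acid genes were at least 1.5-fold higher, against 3.82% of all genes. The medians were 0.40 for the sterol branch, 0.13 for the fatty acid branch and 0.00 for all genes. Above 0 were 16 of 17 sterol genes, against 5314 of all 10604 genes. The difference was smaller with PGC-1α for 14 of 17 sterol genes, a count for which the share over all genes was not computed. Ctrl, which enters only the first OGD comparison, was the lowest library in all 17 sterol genes. With 1 library per group, neither the difference between the branches nor that between the cells was tested.

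**Figure D1:**
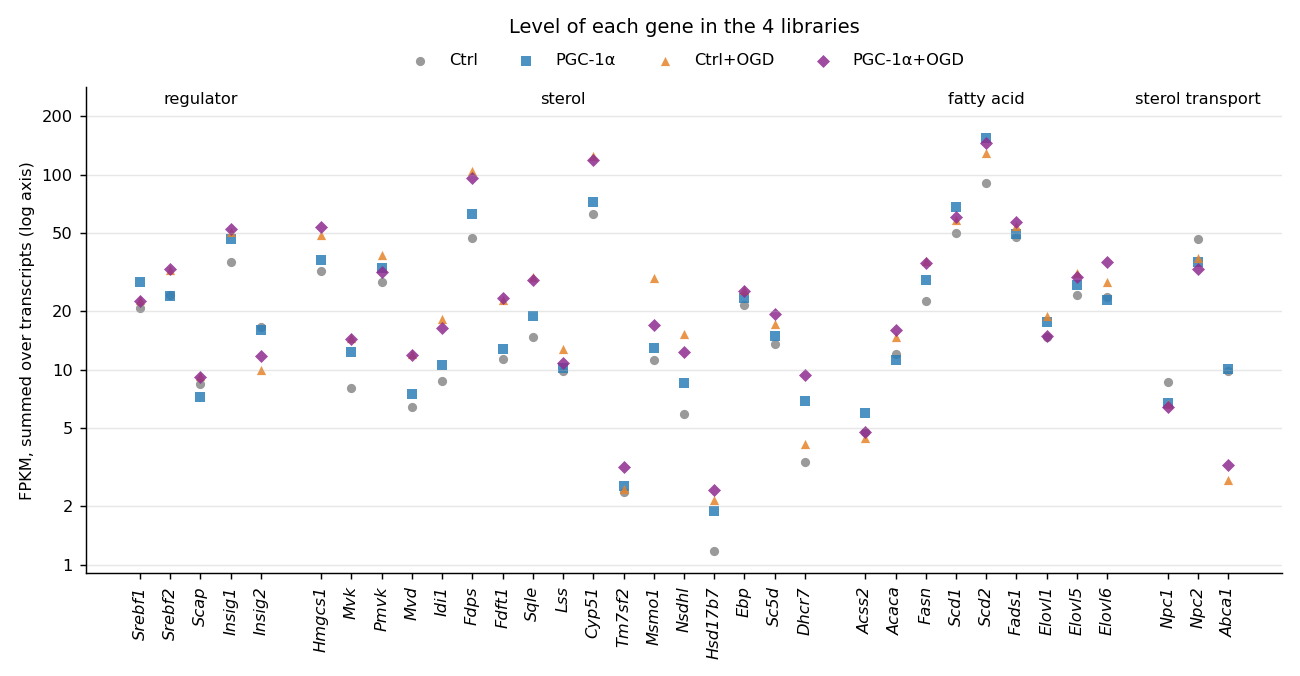
Level of each of the 34 genes in FPKM, summed over transcripts, on a log axis, with 1 point per library and the genes grouped by role. The triangles and diamonds of the OGD libraries lie above the other points for 14 of 17 sterol genes, and below them for Insig2, Acss2, Npc1 and Abca1.

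The same 6 sterol genes, namely Mvd, Idi1, Fdps, Fdft1, Sqle and Cyp51, were at least 1.5-fold higher in both OGD comparisons, and 0.764% of all genes tested were. By the transcript with the highest mean, Sqle (0.14) and Idi1 (0.44) did not pass in PGC-1α+OGD vs PGC-1α. By the sum, both OGD libraries lay above both libraries without OGD in 14 of 17 sterol genes and 5 of 9 fatty acid genes. This was the case for 23.2% of all genes. Across the 34 genes, the log2 fold changes of the 2 OGD comparisons correlated with r = 0.81 (Spearman 0.66), compared with r = 0.28 (Spearman 0.34) across all 10604 genes. Abca1 lies apart from the rest in both comparisons. Within the 17 sterol genes r was 0.60 (Spearman 0.58), and within the 9 fatty acid genes it was 0.22 (Spearman 0.25). Genes are not independent replicates, and these values describe 4 libraries only.

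Along the pathway, the genes of the first steps differed as follows. Hmgcs1 (chromosome 13, 119690379 to 119708260, plus strand), which makes HMG-CoA, was at 32.2 FPKM without and 48.8 FPKM after OGD in control cells, and at 36.2 FPKM without and 53.9 FPKM after OGD in PGC-1α cells. Its log2 fold changes after OGD were 0.59 in control cells and 0.56 with PGC-1α, so that only the first passed 1.5-fold. Mvk, the mevalonate kinase, was at 8.0 and 14.4 FPKM in control cells and at 12.3 and 14.3 FPKM in PGC-1α cells, so that Ctrl was the one low library. By its transcript with the highest mean alone, the log2 fold change of Mvk after OGD was 0.02 in control cells, in place of 0.78 by the sum. Mvd, which decarboxylates mevalonate pyrophosphate, was at 6.43 FPKM without and 12 FPKM after OGD in control cells, and at 7.53 FPKM without and 11.8 FPKM after OGD in PGC-1α cells. Idi1, the isomerase of isopentenyl pyrophosphate, was at 8.70 and 18.2 FPKM in control cells and at 10.6 and 16.3 FPKM in PGC-1α cells. Both OGD libraries were above both others for Mvd and Idi1, and the log2 fold change of Idi1 with PGC-1α (0.59) was 0.47 when transcripts were weighted by length. Fdps, which makes farnesyl pyrophosphate, was at 47.4 FPKM without and 104 FPKM after OGD in control cells, and at 62.8 FPKM without and 95.6 FPKM after OGD in PGC-1α cells, with log2 fold changes of 1.12 and 0.60 after OGD. Fdps shares 1124 exon bases on the same strand with Gm43738, so reads of the pair cannot be told apart there. Pmvk, the phosphomevalonate kinase of the step between Mvk and Mvd, did not reach 1.5-fold in either OGD comparison (0.43 and -0.07).

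From squalene formation to the removal of the methyl groups of lanosterol, Fdft1, Sqle, Cyp51, Msmo1 and Nsdhl passed 1.5-fold in control cells, and Lss, Tm7sf2 and Hsd17b7 did not. Fdft1, the squalene synthase, was at 11.4 FPKM without and 22.7 FPKM after OGD in control cells, and at 12.7 FPKM without and 23.2 FPKM after OGD in PGC-1α cells, and its log2 fold changes after OGD, 0.93 and 0.82, were the most alike of the 6 genes that passed in both comparisons. Sqle, the squalene epoxidase, was at 14.6 and 29.8 FPKM in control cells and at 18.8 and 28.9 FPKM in PGC-1α cells. Cyp51 (chromosome 5, 4081145 to 4104746, minus strand), the lanosterol demethylase and the sterol gene with the highest level in each library, was at 62.9 FPKM without and 125 FPKM after OGD in control cells, and at 72.4 FPKM without and 119 FPKM after OGD in PGC-1α cells. It has 1 deposited transcript, so no choice of transcript enters its log2 fold changes of 0.97 and 0.71. Msmo1, the methylsterol oxidase, was at 11.2 FPKM without and 29.4 FPKM after OGD in control cells, and at 12.9 FPKM without and 17.0 FPKM after OGD in PGC-1α cells, and Ctrl+OGD stood apart from the other 3 libraries. Its log2 fold change after OGD with PGC-1α was 0.37 by the sum and -0.28 by the transcript with the highest mean. With transcripts weighted by length it was -0.03, so that its direction depended on the transcripts taken. Nsdhl, which acts on the same methyl groups, was at 5.88 and 15.1 FPKM in control cells and at 8.55 and 12.3 FPKM in PGC-1α cells.

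Among the sterol genes that did not pass in either OGD comparison, Lss, the lanosterol synthase that acts between Sqle and Cyp51, had log2 fold changes of 0.35 and 0.08. Ebp, Sc5d and Dhcr7, which act in the last steps, had 0.24 to 0.33 in control cells and 0.11 to 0.40 with PGC-1α. Hsd17b7, a reductase of the demethylation complex, had the lowest levels of the branch, at 1.17 to 2.41 FPKM. At such levels the added 1 FPKM shrinks a difference, and with 0.1 FPKM added instead the log2 fold change of Hsd17b7 in Ctrl+OGD vs Ctrl was 0.82 in place of 0.54. Tm7sf2, a sterol reductase at 2.35 to 3.18 FPKM, shares 532 exon bases on the same strand with Vps51.

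**Figure D2:**
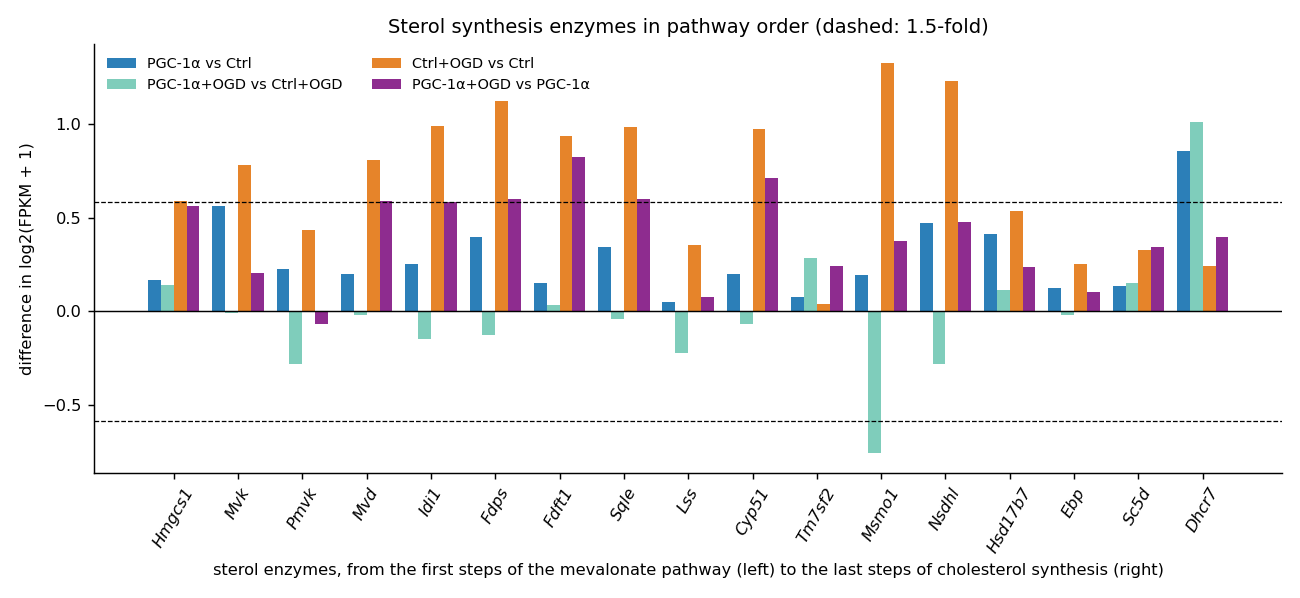
Difference in log2(FPKM + 1) for the 17 sterol enzymes in pathway order, with 1 bar per comparison and dashed lines at 1.5-fold. The bars of Ctrl+OGD vs Ctrl are above 0 for all 17 genes and are highest for Msmo1 (1.32) and Nsdhl (1.23), and Dhcr7 is the one gene past the upper line in both comparisons of PGC-1α with control.

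In the fatty acid branch, 1 gene passed 1.5-fold in each OGD comparison, and not the same one. Fasn (chromosome 11, 120805846 to 120824547, minus strand), the fatty acid synthase, was at 22.6 FPKM without and 36 FPKM after OGD in control cells, and at 28.9 FPKM without and 35.2 FPKM after OGD in PGC-1α cells, with log2 fold changes of 0.65 and 0.28. Elovl6, the elongase of palmitate, was at 23.4 and 28.0 FPKM in control cells and at 22.6 and 35.8 FPKM in PGC-1α cells, with log2 fold changes of 0.25 and 0.64. Acaca, the acetyl-CoA carboxylase of the first committed step, was at 12.1 and 14.6 FPKM in control cells and at 11.1 and 16.0 FPKM in PGC-1α cells, with 0.26 and 0.49, and did not pass. Acss2, which makes acetyl-CoA from acetate, was the one gene of the branch below 0 in both (-0.08 and -0.28). Fads1 and Elovl5, a desaturase and an elongase, had log2 fold changes between 0.18 and 0.37 in control cells and between 0.13 and 0.20 with PGC-1α. Elovl1, another elongase, was at 14.6 and 18.9 FPKM in control cells and at 17.5 and 14.8 FPKM in PGC-1α cells, with 0.35 and -0.23 by the sum and 1.00 and -1.75 by its transcript with the highest mean.

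Scd1 and Scd2, the stearoyl-CoA desaturases that make monounsaturated fatty acids, were the most abundant genes of the fatty acid branch with Fads1. Scd2 (chromosome 19, 44293674 to 44306864, plus strand) was at 90.9 FPKM without and 128 FPKM after OGD in control cells, and at 154 FPKM without and 144 FPKM after OGD in PGC-1α cells. Scd1 lay between 50.1 and 68.5 FPKM and did not reach 1.5-fold in any comparison. For both genes the PGC-1α library was the highest and the Ctrl library the lowest. Only values per transcript were available, so reads shared between these paralogs could not be separated.

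**Figure D3:**
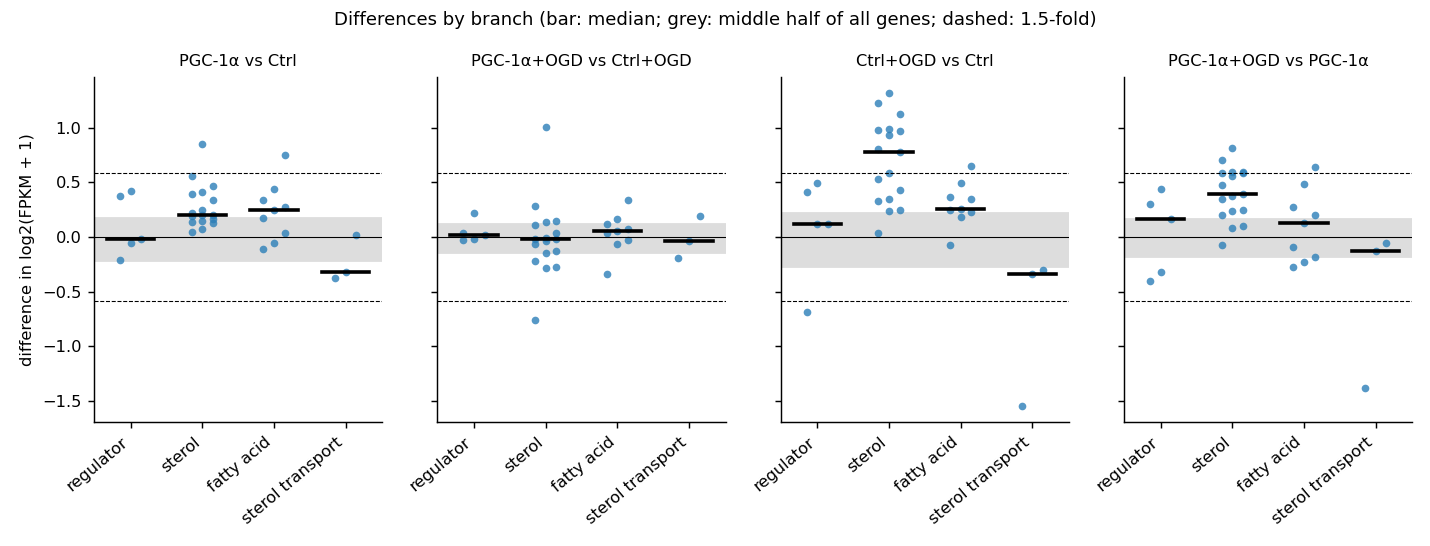
Difference in log2(FPKM + 1) for each gene (points) by role in the 4 comparisons, with the median as a bar, the middle 50% of all 10604 genes in grey and 1.5-fold as dashed lines. In Ctrl+OGD vs Ctrl the sterol median (0.78) lies above the dashed line and the fatty acid median (0.26) just above the grey band, whereas in PGC-1α vs Ctrl the 2 medians are close (0.20 and 0.25).

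Among the regulators, the differences after OGD had no common direction. Srebf2 (chromosome 15, 82147181 to 82205379, plus strand) was at 24.1 FPKM without and 32.4 FPKM after OGD in control cells, and at 23.9 FPKM without and 32.8 FPKM after OGD in PGC-1α cells, so that the libraries fell into 2 levels by OGD, with log2 fold changes of 0.41 and 0.44 that did not reach 1.5-fold. Srebf1 was at 20.8 and 22.7 FPKM in control cells and at 28.2 and 22.4 FPKM in PGC-1α cells, and only the PGC-1α library stood above the rest. The difference in Srebf1 lay in its transcript ENSMUST00000134660, which had 19.8 FPKM in the PGC-1α library and 12.8 to 15.4 FPKM in the other 3 libraries, while ENSMUST00000020846 lay between 3.77 and 4.51 FPKM. Scap, the escort of the precursors, was at 8.46 and 9.27 FPKM in control cells and at 7.19 and 9.11 FPKM in PGC-1α cells.

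The INSIG genes, both of which encode proteins that retain SCAP, differed in opposite directions after OGD. Insig1, itself a known SREBP target, was at 35.8 FPKM without and 50.9 FPKM after OGD in control cells, and at 46.7 FPKM without and 52.4 FPKM after OGD in PGC-1α cells, with log2 fold changes of 0.50 and 0.16. Insig2 was at 16.6 and 9.95 FPKM in control cells and at 15.9 and 11.8 FPKM in PGC-1α cells, so that both OGD libraries were the lowest. It was at least 1.5-fold lower in Ctrl+OGD vs Ctrl (-0.68), as were 7.71% of all genes, and did not reach 1.5-fold with PGC-1α (-0.40).

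In sterol transport, Abca1 differed most of all 34 genes. Abca1 (chromosome 4, 53030787 to 53159895, minus strand), which exports cholesterol from the cell and is known as a target of the sterol-sensing liver X receptors, was at 9.87 FPKM without and 2.71 FPKM after OGD in control cells, and at 10.1 FPKM without and 3.24 FPKM after OGD in PGC-1α cells. Both OGD libraries were far below both others, and the log2 fold changes were -1.55 and -1.38, with a ratio of FPKM of 0.275 and 0.322. It was the one gene of the 34 that was at least 1.5-fold lower in PGC-1α+OGD vs PGC-1α, as were 5.22% of all genes, and the one that was lower in both OGD comparisons, as were 1.74% of all genes. Npc1 and Npc2, which move cholesterol out of lysosomes, were highest in Ctrl and did not reach 1.5-fold in any comparison. Npc1 lay between 6.44 and 8.62 FPKM and Npc2 between 32.7 and 46.5 FPKM.

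**Figure D4:**
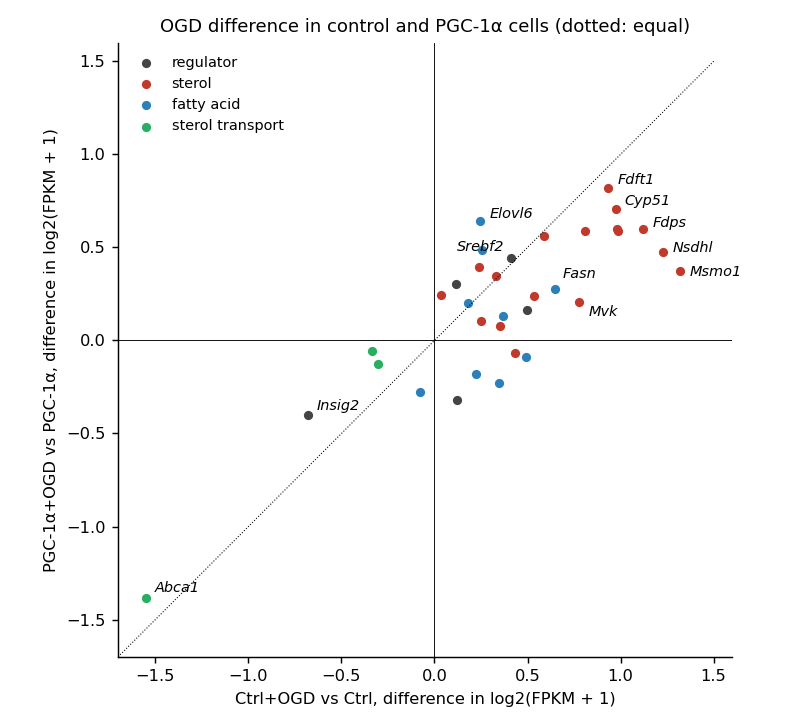
Difference in log2(FPKM + 1) after OGD in control cells (x axis) and in PGC-1α cells (y axis) for the 34 genes, coloured by role, with equal values on the dotted line. Of the 17 sterol genes, 14 lie below the dotted line (the share over all genes was not computed), and Abca1 lies alone at the lower left (-1.55 and -1.38).

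PGC-1α overexpression without OGD was accompanied by small differences of one sign in the sterol branch. In PGC-1α vs Ctrl, all 17 sterol genes and 7 of 9 fatty acid genes had a log2 fold change above 0, against 4853 of all 10604 genes. The medians were 0.20 and 0.25 against -0.03 over all genes. Of the 34 genes, 2 (Dhcr7 and Scd2) were at least 1.5-fold higher, a share of 5.88% against 4.91% of all genes, and 0 were at least 1.5-fold lower, against 5.63% of all genes. This comparison uses the same Ctrl library as Ctrl+OGD vs Ctrl, and Ctrl was the lowest of the 4 libraries in all 17 sterol genes, against 28.2% of all genes. The part of the Ctrl library in both differences was not tested. In the second OGD comparison, which does not use Ctrl, 16 of 17 sterol genes were above 0 by the sum. The count was 15 with transcripts weighted by length and 13 by the transcript with the highest mean.

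After OGD, the cells with and without PGC-1α differed little in the medians of both branches. In PGC-1α+OGD vs Ctrl+OGD, the median log2 fold change was -0.02 for the sterol branch and 0.06 for the fatty acid branch. Above 0 were 6 of 17 sterol genes, against 4994 of all 10604 genes. One gene, Dhcr7, was at least 1.5-fold higher (3.08% of all genes were) and 1 gene, Msmo1, was at least 1.5-fold lower (3.82% of all genes were). The log2 fold change of Msmo1 was -0.76 here, compared with 0.19 in PGC-1α vs Ctrl. The summed sterol branch stood at 348 FPKM in PGC-1α and 494 FPKM in PGC-1α+OGD, a ratio of 1.42. The difference between the effects of PGC-1α with and without OGD had a median of -0.27 over the 17 sterol genes. By arithmetic, it equals the difference between the OGD effects with and without PGC-1α described above, so it is not a separate result. It includes the Ctrl library, and its median over all genes was not computed.

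Dhcr7 (chromosome 7, 143823145 to 143848410, plus strand), which catalyses the last step of cholesterol synthesis, was the one gene that was at least 1.5-fold higher with PGC-1α in both comparisons, as were 0.707% of all genes. It was at 3.37 FPKM without and 4.17 FPKM after OGD in control cells, and at 6.92 FPKM without and 9.41 FPKM after OGD in PGC-1α cells, so that both PGC-1α libraries lay above both control libraries. The log2 fold changes were 0.86 without OGD and 1.01 with OGD. Its differences after OGD did not reach 1.5-fold (0.24 and 0.40). By the transcript with the highest mean, the log2 fold changes were 2.78 and 1.29 with PGC-1α, and -0.05 and -1.54 after OGD, so that the direction after OGD depended on the transcript taken.

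Several of these genes had transcripts that replaced each other between libraries, which bears on any value taken from 1 transcript. For Sqle, ENSMUST00000022977 held all 14.6 FPKM of the Ctrl library, and ENSMUST00000100640, which is listed at 0 there, held 65.7% to 91.3% of the value in the other 3 libraries, with 17.1 FPKM in the PGC-1α library. The log2 fold change of Sqle in PGC-1α vs Ctrl was 0.34 by the sum and 4.18 by the transcript with the highest mean. For Acaca, ENSMUST00000020843 was at 8.31 FPKM in Ctrl and is listed at 0 in the other 3 libraries, in which ENSMUST00000103201 was at 6.71 to 7.52 FPKM. For Fasn, ENSMUST00000206589 was at 13.6 FPKM in Ctrl+OGD and is listed at 0 in the other 3 libraries, and by the transcript with the highest mean alone the difference of Fasn in Ctrl+OGD vs Ctrl was -0.032. For Dhcr7, a different transcript was the most abundant in each of the 4 libraries. For Msmo1, the short transcript ENSMUST00000147419 of 645 bases held 42.1% of the value in PGC-1α+OGD and 4.84% in Ctrl+OGD. For Elovl1, ENSMUST00000102673 held 57.0% and 57.9% of the value in PGC-1α and Ctrl+OGD, and 34.0% and 15.4% in Ctrl and PGC-1α+OGD. Past 1.5-fold only by the transcript with the highest mean were also Srebf1 (0.59), Mvk (0.66), Fdft1 (0.71) and Elovl6 (-0.81) in PGC-1α vs Ctrl, and Insig2 (0.61), Mvk (0.68) and Fasn (0.61) in PGC-1α+OGD vs Ctrl+OGD. By the transcript with the highest mean in place of the sum, 8 members were at least 1.5-fold higher and 1 lower in PGC-1α vs Ctrl (7.8% and 9.3% of all genes), and 4 were higher and 2 lower in PGC-1α+OGD vs Ctrl+OGD (5.84% and 7.23%). In the OGD comparisons, 11 were higher and 2 lower in Ctrl+OGD vs Ctrl (9.59% and 10.4%), and 5 were higher and 3 lower in PGC-1α+OGD vs PGC-1α (7.46% and 8.73%). Whether these are changes in splicing or in the assignment of reads between overlapping transcripts cannot be told apart from 1 value per transcript.

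**Figure D5:**
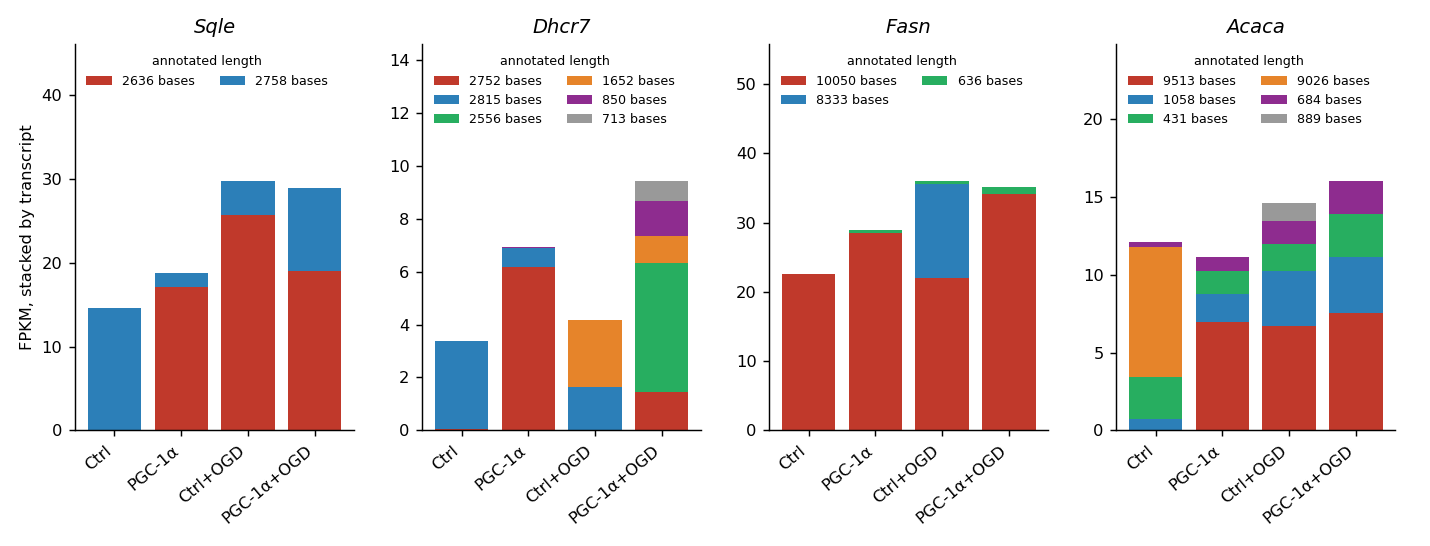
FPKM of Sqle, Dhcr7, Fasn and Acaca in the 4 libraries, stacked by deposited transcript, which the colours mark by annotated length in bases. The heights of the bars are the summed levels used here, and the leading colour changes between libraries, for instance in Sqle between Ctrl and the other 3.

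Of 37 further genes of the pathway, 33 had values and all 33 were tested. In Ctrl+OGD vs Ctrl, 1 of 9 genes of fatty acid supply and elongation was at least 1.5-fold higher, with a median log2 fold change of 0.05, and 0 of 11 genes of acyl transfer and storage were, with a median of -0.17, against 6.2% of all genes and a median of -0.02. The further genes of sterol synthesis and uptake are not summarised here. Acat2, which makes acetoacetyl-CoA for the first steps of the sterol branch, was at 4.74 and 10.6 FPKM in control cells and at 7.76 and 9.35 FPKM in PGC-1α cells, so that Ctrl was the lowest library. Its log2 fold changes were 1.02 in Ctrl+OGD vs Ctrl and 0.61 in PGC-1α vs Ctrl, both past 1.5-fold.

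Of the further genes, Mylip, a ubiquitin ligase that is known as a target of liver X receptors, was lower after OGD and was chosen, with Nr1h2, after its values were seen. It was at 23.6 FPKM without and 13.0 FPKM after OGD in control cells, and at 16.2 FPKM without and 11.8 FPKM after OGD in PGC-1α cells, with log2 fold changes of -0.81 and -0.43, of which only the first passed 1.5-fold. Abca1 and Mylip do not stand for the targets of liver X receptors as a set, and whether such a set differed was not tested. The receptor genes had log2 fold changes after OGD of 0.17 and -0.08 for Nr1h2 and of 0.10 and -0.48 for Nr1h3. Nr1h3 was at least 1.5-fold lower with PGC-1α after OGD (-0.71), with 2.57 FPKM against 4.82 FPKM in control cells, but not by its transcript with the highest mean (-0.08).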

How the data were processed

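RNA-Seq of 4 libraries of HT-22 cells, 1 per group, was analysed. According to the submitters' processing notes, the authors aligned the poly(A) reads with HISAT2 2.1.0 to GRCm38. The deposited table gives 1 value per transcript and library. Its unit is not named, and the deposited values were taken as FPKM because they are never negative and their totals differ. The quantification program and annotation are not given in the sources used here. Every deposited transcript reached 0.500 FPKM in at least 1 library.

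Of 25889 transcripts, 25822 (99.7%) had their identifier, without its version, in GENCODE release M21, and 67 were left out. Transcripts were summed per symbol, 1 FPKM was added before taking log2, and no further scaling was applied to the 10604 genes kept by the limit of 1 FPKM on the mean. The limit of 1.5-fold is that of the study, whose accompanying p value cannot be computed without replicates. The precision of a single value is unknown. The library kit marks strand, but whether strand was used for these values is not given in the sources used here. Fdft1 and Ctsb, Cyp51 and Akap9, and Npc1 and Rmc1 share exon bases on opposite strands.

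The genes, the further lists, the motifs and the markers were chosen with earlier results of these data known. Values in all libraries are given for members past 1.5-fold in any comparison, for the regulators, and for members whose call depended on the transcript taken. Further genes are named where past 1.5-fold with PGC-1α or as the 2 largest differences of a comparison, and Acsl3 is named beside them as a gene that did not pass. Some of the further genes are not reported here. The alternatives were 0.1 FPKM added, no limit on the mean, a limit of 5 FPKM, median ratio scaling and the transcript with the highest mean. A sum weighted by transcript length and the genes with 1 deposited transcript were added after the data were seen. Python (3.11.15) was used with pandas (2.3.3), numpy (2.4.6) and matplotlib (3.10.9), and the steps were tested on simulated data.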

Additional observations from a re-analysis of the deposited data

Results flagged for a closer look

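Mbtps1, which encodes the site-1 protease that makes the first cut in SREBP precursors, differed in opposite directions between the arms of the study, by more than 1.5-fold each way. It was at 8.87 FPKM without and 21.9 FPKM after OGD in control cells, and at 17.7 FPKM without and 7.0 FPKM after OGD in PGC-1α cells. The log2 fold change with PGC-1α was 0.92 without OGD and -1.51 with OGD, and the log2 fold change after OGD was 1.21 in control cells and -1.23 in PGC-1α cells. Its 2 deposited transcripts kept nearly the same shares, since ENSMUST00000098362 held 66.5% to 73.6% of the value in the 4 libraries. With 1 library per group, the difference between the arms was not tested. By the sum, none of the 34 genes differed in opposite directions past 1.5-fold in this way. By the transcript with the highest mean, Elovl1 did. Its log2 fold changes with PGC-1α were then 0.88 without OGD and -1.87 with OGD. After OGD they were 1.00 in control cells and -1.75 in PGC-1α cells.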

How the results depend on the processing

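No paired analysis was possible because each group has 1 library and the labels give no replicate numbers, and for the same reason no library could be left out. With no limit on the mean, with a limit of 5 FPKM or with median ratio scaling, the counts of members past 1.5-fold stayed within 1.5 times and the branch medians within 0.1 of their values. With 0.1 FPKM added, 4 in place of 2 members were higher in PGC-1α vs Ctrl, where Mvk and Hsd17b7 were added. The choice of transcript mattered most. By the transcript with the highest mean, 8 members were higher and 1 lower in PGC-1α vs Ctrl, 4 were higher and 2 lower in PGC-1α+OGD vs Ctrl+OGD, and 3 were lower in PGC-1α+OGD vs PGC-1α, since transcripts replace each other between libraries. Over all genes, 814 were then higher and 971 lower in PGC-1α vs Ctrl (521 and 597 by the sum), 609 and 755 in PGC-1α+OGD vs Ctrl+OGD (327 and 405), 1001 and 1086 in Ctrl+OGD vs Ctrl (657 and 818), and 779 and 911 in PGC-1α+OGD vs PGC-1α (405 and 553). The sterol median was then 0.66 in Ctrl+OGD vs Ctrl and 0.24 in PGC-1α+OGD vs PGC-1α, and Fasn changed sign in Ctrl+OGD vs Ctrl (-0.032). With transcripts weighted by length, the sterol median in PGC-1α+OGD vs PGC-1α was 0.29, and Fasn in Ctrl+OGD vs Ctrl (0.54) and Idi1 in PGC-1α+OGD vs PGC-1α (0.47) no longer passed 1.5-fold. Over the genes with 1 deposited transcript, the fatty acid median was 0.36 in PGC-1α vs Ctrl and -0.13 in PGC-1α+OGD vs PGC-1α, and the cause was not tested beyond the smaller number of genes.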

Other observations

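Some genes that join fatty acids to glycerol lipids, activate them or elongate them differed in other ways than most synthesis genes, and each had low or moderate levels. They are named because they passed 1.5-fold in a comparison of PGC-1α with its control. Acsl3, of acyl transfer and storage, did not pass and was lowest in Ctrl, as most synthesis genes were. It was at 18.7 and 25.1 FPKM in control cells and at 22.3 and 26.7 FPKM in PGC-1α cells. Agpat2, which makes phosphatidic acid, was at 4.66 FPKM without and 3.96 FPKM after OGD in control cells, and at 2.23 FPKM without and 5.10 FPKM after OGD in PGC-1α cells, so that the PGC-1α library alone was low, with log2 fold changes of -0.81 against Ctrl and of 0.92 for PGC-1α+OGD against PGC-1α. Dgat1, an enzyme of the last step of triglyceride synthesis, was at 6.57 and 4.54 FPKM in control cells and at 10.9 and 7.06 FPKM in PGC-1α cells, higher with PGC-1α both without OGD (0.65) and with OGD (0.54), of which the first passed 1.5-fold. Without OGD, Dgat1 did not pass by the transcript with the highest mean (0.54) or with transcripts weighted by length (0.58). Dgat2, which catalyses the same step, was at 6.41 and 6.22 FPKM in control cells and at 3.90 and 5.37 FPKM in PGC-1α cells, and was at least 1.5-fold lower in PGC-1α vs Ctrl (-0.60). Acsl1, which activates long-chain fatty acids and is a known target of PPAR receptors, was at 11.4 and 6.57 FPKM in control cells and at 9.38 and 12.5 FPKM in PGC-1α cells, so that Ctrl+OGD was the low library, and it was at least 1.5-fold higher in PGC-1α+OGD vs Ctrl+OGD (0.83). Elovl3, an elongase, was at 2.77 and 2.06 FPKM in control cells and at 1.25 and 2.16 FPKM in PGC-1α cells, and was at least 1.5-fold lower in PGC-1α vs Ctrl (-0.75). Over the 11 genes of acyl transfer and storage, the median log2 fold change was -0.10 in PGC-1α vs Ctrl and 0.22 in PGC-1α+OGD vs Ctrl+OGD, against -0.03 and -0.01 over all genes.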
